A study of Mus musculus with 3 samples.

Results

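The genes of the galectins, a family of lectins, were followed in dendritic cells grown from mouse bone marrow (BMDC). The 9 genes were the galectin genes Lgals1, Lgals2, Lgals3, Lgals4, Lgals7, Lgals8, Lgals9 and Lgals12 together with Lgals3bp, which encodes a glycoprotein that galectins bind. They were taken by name from the 19938 genes that had a probe set naming a single gene, and each of the 9 had 1 such probe set. The study comprised 3 Affymetrix whole-transcript arrays, 1 per sample, which form 1 group (n = 3). All 3 samples were marrow cells of C57BL/6J mice, plated at 2000000 per well and grown for 9 days with murine GM-CSF and murine IL-4 at 20 ng/ml each. No genotype, drug or time was contrasted, so the question the data answer is which galectin genes these cultures expressed and how far the arrays differed. The labels leave unsaid if separate mice or cultures gave the samples, and every spread below may be technical.

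Galectins are small proteins that bind glycans ending in galactose, above all the N-acetyllactosamine units of N- and O-glycans. They have no signal peptide, are made in the cytosol, leave the cell by an unconventional route and crosslink glycoproteins on the cell surface. Inside the cell they bind glycans that are exposed when an endosome or lysosome breaks. Prototype galectins have a single carbohydrate-binding domain and form dimers, tandem-repeat galectins join a pair of different domains, and galectin-3, the chimera type, carries its domain on a long flexible tail. In myeloid cells galectin-3 is best known as the macrophage antigen Mac-2.

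The promoters are shown first because 4 of them frame the range of levels described next. They belong to Lgals3, which had the highest signal among the 9 genes, to Lgals9 and Lgals3bp, which also had high signals, and to Lgals2, which had the lowest. Each is the 250 bases before the start of the gene in RefSeq (build GRCm38.p6), written 5′ to 3′ on the strand of the gene, and capitals mark matches to the motifs named after them. The windows are chr14:47373610-47373859 (plus strand), chr11:78984925-78985174 (minus strand), chr11:118401960-118402209 (minus strand) and chr15:78855530-78855779 (minus strand).
Lgals3: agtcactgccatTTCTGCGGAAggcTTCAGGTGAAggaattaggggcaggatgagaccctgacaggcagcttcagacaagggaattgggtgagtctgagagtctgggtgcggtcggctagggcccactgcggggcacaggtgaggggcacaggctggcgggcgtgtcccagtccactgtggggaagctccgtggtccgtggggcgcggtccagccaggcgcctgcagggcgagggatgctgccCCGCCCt
Lgals9: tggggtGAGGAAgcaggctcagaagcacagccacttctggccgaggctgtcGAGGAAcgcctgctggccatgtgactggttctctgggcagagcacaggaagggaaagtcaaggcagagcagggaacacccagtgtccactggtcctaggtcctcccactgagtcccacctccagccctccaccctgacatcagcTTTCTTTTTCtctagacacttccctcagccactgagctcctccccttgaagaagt
Lgals3bp: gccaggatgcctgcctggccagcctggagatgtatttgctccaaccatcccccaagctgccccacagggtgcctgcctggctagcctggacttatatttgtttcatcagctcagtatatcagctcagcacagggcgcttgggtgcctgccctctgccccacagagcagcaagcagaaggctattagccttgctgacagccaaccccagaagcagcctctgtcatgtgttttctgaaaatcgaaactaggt
Lgals2: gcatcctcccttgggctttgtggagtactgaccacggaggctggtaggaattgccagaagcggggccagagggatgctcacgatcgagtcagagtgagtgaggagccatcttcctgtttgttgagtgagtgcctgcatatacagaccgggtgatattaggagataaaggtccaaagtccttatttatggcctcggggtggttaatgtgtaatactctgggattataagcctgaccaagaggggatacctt

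RefSeq promoters were found for 7 of the 9 genes, not for Lgals1 or Lgals12. In the window from 250 bases before to 50 after the start, 7 motifs were searched on both strands. They were the interferon response element (GAAA and GAAA with any 2 bases between), the STAT5 type (TTC and GAA with any 3 bases between) and the STAT6 type (TTC and GAA with any 4 bases between). The others were the core of PU.1 (GAGGAA), the core of Sp1 (GGGCGG), an NF-kB type (GGGA and TTTCC with any 1 base between) and the TATA box (TATAAA). STAT5 and STAT6 are the factors that signal from the GM-CSF and IL-4 receptors, and PU.1 is a master factor of myeloid cells. Lgals3 held the STAT6 type in 2 places, beginning 238 and 225 bases before the start, and the Sp1 core in 2 more, on either side of the start. Sp1 cores are common, with 2 or more in 19.5% of all windows. At least 1 STAT6 type match stood in 6.95% of the 32851 windows of this length, and 2 or more in 0.323%. Lgals9 held the interferon response element in 2 places, as TTTCTTTTTC 55 bases before the start and as TTTCTGTTTC from position 16 of the transcript, both on the opposite strand, and the PU.1 core in 2 others. Such an element stood at least once in 3.44% of all windows and 2 times or more in 0.225%, and 2 or more PU.1 cores stood in 4.82%. The Lgals3bp window held only a PU.1 core, at position 33 of the transcript and so outside the printed bases, a motif that 28.3% of all windows hold. The windows of Lgals2 and Lgals8 held none of the 7 motifs, Lgals7 held an Sp1 core, and Lgals4 held a PU.1 core and an Sp1 core. In none of the 7 windows did matches overlap. The motifs were chosen after the sequences had been seen, and a match describes letters, not binding.

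CpG is the dinucleotide that is dense at the starts of widely expressed genes. The observed over expected CpG ratio was 0.563 for Lgals3, 0.313 for Lgals2, 0.303 for Lgals8, 0.212 for Lgals7, 0.184 for Lgals4, 0.160 for Lgals9 and 0.133 for Lgals3bp. The ratio of Lgals3 stood at percentile 61.9 of all windows, above most of them, and those of the other 6 stood between percentiles 18.4 and 43.3. Of 7442 measured genes whose promoter had a ratio under 0.6, 38.9% were above background by the limit given below and 5.59% lay in the top 10% of all genes by level. Of 8172 genes at or over that ratio, 82.9% were above background and 14.7% lay in the top 10%.

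Values are log2 expression made by the authors with RMA. A gene was counted as above background where it exceeded, in every array, the 95th percentile of the 1210 probe sets for olfactory and vomeronasal receptors of that array, at 5.54, 5.54 and 5.55 in replicates 1, 2 and 3. Of the 9 genes 6 were above background, 66.7%, beside 60.5% of all 19938 genes, so the count by itself is near the background. The levels were spread more widely than the count shows. Lgals1, Lgals3, Lgals3bp, Lgals8 and Lgals9 lay in the top 10% of all genes, while the other 4 lay below the median of all genes, 6.12. None of the means of the 9 genes lay between 5.85 and 9.41, a gap that holds for these 9 genes and not for the galectin-like genes named below.

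**Figure D1:**
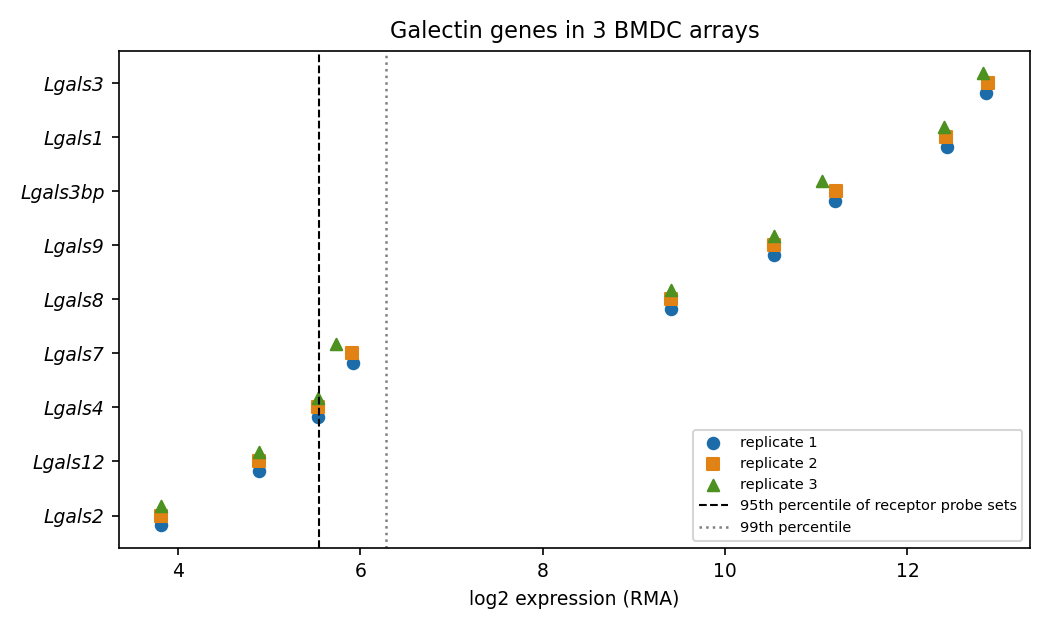
Log2 expression (RMA, horizontal axis) of the 9 genes in each of the 3 arrays (symbols), with the mean 95th and 99th percentile limits of receptor probe sets as vertical lines. Lgals8, Lgals9, Lgals3bp, Lgals1 and Lgals3 lie from 9.41 upward in every array, and Lgals7 lies between the limits.

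The 3 prototype galectin genes ranged from near the top of the arrays to below the limit. Lgals1 encodes galectin-1, a dimer that crosslinks CD45 and CD43 on T cells and is known for dampening T cell responses. It had 12.43, 12.43 and 12.41 in replicates 1, 2 and 3, a mean of 12.42 ± 0.01 (SD, n = 3), and ranked 46 from the top of 19938 genes. The arrays were alike to within 0.03 log2 units. Lgals2, which encodes galectin-2 and is best known from the gut, had 3.81 in each array, 1.73 to 1.74 log2 units below the limit. Its mean exceeded 46.4% of the receptor probe sets, so it lay in the midst of genes that serve here as silent. Lgals1 and Lgals2 are near neighbours in the genome, with 3 protein-coding genes between them, Gga1, Sh3bp1 and Pdxp. Of these Gga1 (7.98, 8.03 and 8.03 in replicates 1, 2 and 3) and Sh3bp1 (8.85, 8.90 and 8.86) were above background and Pdxp (5.40, 5.35 and 5.35) was not.

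Lgals7, the galectin of stratified epithelia, had 5.92, 5.91 and 5.73 in replicates 1, 2 and 3, a mean of 5.85 ± 0.10 (SD, n = 3). Every array was above the limit, by 0.38 log2 units at most and 0.18 at least. A stricter limit, the 99th percentile of the same receptors (6.28, 6.24 and 6.33), was not reached in any array. That limit left 5 of the 9 genes and 46.2% of all genes. A limit from the genes of other organs described next, at 6.54 in each array, left the same number of the 9 and 42.9% of all genes. Of 35 genes typical of other organs, such as liver, muscle and brain, 9 had a mean at or above that of Lgals7, and 10 of the 35 (28.6%) passed the 95th percentile limit. The call of Lgals7 thus rests on the choice of limit. Of 8 marker genes of stratified epithelium only Krt10 was above background, at 5.67, while Krt5 (4.73, 4.73 and 4.84), Krt14 (5.37) and Krt1 (4.05, 4.05 and 4.01) were below it.

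Lgals3, the chimera galectin, had the highest signal of the family. It had 12.87, 12.89 and 12.83 in replicates 1, 2 and 3, a mean of 12.86 ± 0.03 (SD, n = 3), which ranked 14 from the top. The arrays spanned 0.06 log2 units. Galectin-3 acts in phagocytosis and in the repair and removal of damaged lysosomes, and it can hold receptors in a lattice at the cell surface. Lgals3bp, the Mac-2 binding protein, is a secreted glycoprotein that binds galectin-3 and galectin-1 and is known as an interferon-induced gene. It had 11.20, 11.21 and 11.06 in replicates 1, 2 and 3, a mean of 11.16 ± 0.09 (SD, n = 3), at percentile 98.5 of all genes. Replicate 3 was the lowest, by 0.15 log2 units below the mean of the other arrays. Both members of this binding pair were thus among the stronger signals of the arrays.

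The 4 tandem-repeat galectins fell into a detected and an undetected pair. Lgals9 encodes galectin-9, a ligand of the inhibitory receptor TIM-3 and an interferon-induced gene. It had 10.54 in each array, at least 4.99 log2 units above the limit and at percentile 97.3 of all genes. Lgals8 encodes galectin-8, which marks broken endosomes for autophagy. It had 9.41 in each array, at percentile 92.3. The values of both genes were identical in the 3 arrays to the last digit given, as in 44.8% of all probe sets, so their SD of 0 says nothing about precision.

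Lgals4, a galectin of gut epithelium, had 5.53 in each array and stood just under the limit, by 0.0022 log2 units where it was nearest and 0.016 where it was farthest. The probe sets on either side of the limit were thus Lgals4 from below and Lgals7 from above. The annotation lists 2 RefSeq mRNAs for the Lgals4 probe set, of which 1 belongs to Lgals4 in the gene table used here and 1 is not in that table, so the probe set may not measure Lgals4 alone. Lgals4 and Lgals7 are adjacent in the genome, with 0 protein-coding genes between them. Of 8 markers of gut epithelium, Cdx1 (6.53) and Muc2 (5.63) passed the limit, and Vil1 (4.76, 4.68 and 4.68), Cdx2 (5.10) and Cdh17 (4.32) were among the 6 that did not.

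Lgals12, known from fat cells, had 4.89 in each array, 0.65 to 0.66 log2 units below the limit. Of 7 measured adipocyte markers 5 passed the limit, among them the lipid genes Fabp4 (9.67, 9.61 and 9.61) and Pparg (9.84, 9.73 and 9.68), which macrophages and dendritic cells also express. Plin1 (5.93) and Cidec (5.71) passed narrowly, and the fat cell hormones Adipoq (4.40, 4.40 and 4.25) and Lep (4.15) did not. Lgals2, Lgals4 and Lgals12 were below the limit in 3 of 3 arrays each.

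Ordered by signal, the 9 genes ran Lgals3, Lgals1, Lgals3bp, Lgals9, Lgals8, Lgals7, Lgals4, Lgals12 and Lgals2. The ranges of no pair of neighbours in this order overlapped. Probe sets bind with different strength, so the order is one of array signal and not of transcript amount. Outside the 9 genes, the galectin-like genes Lgalsl (7.78, 7.78 and 7.76) and Grifin (6.18), relatives that are thought not to bind lactose, were above background. Grifin, unlike Lgalsl, missed both stricter limits.

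**Figure D2:**
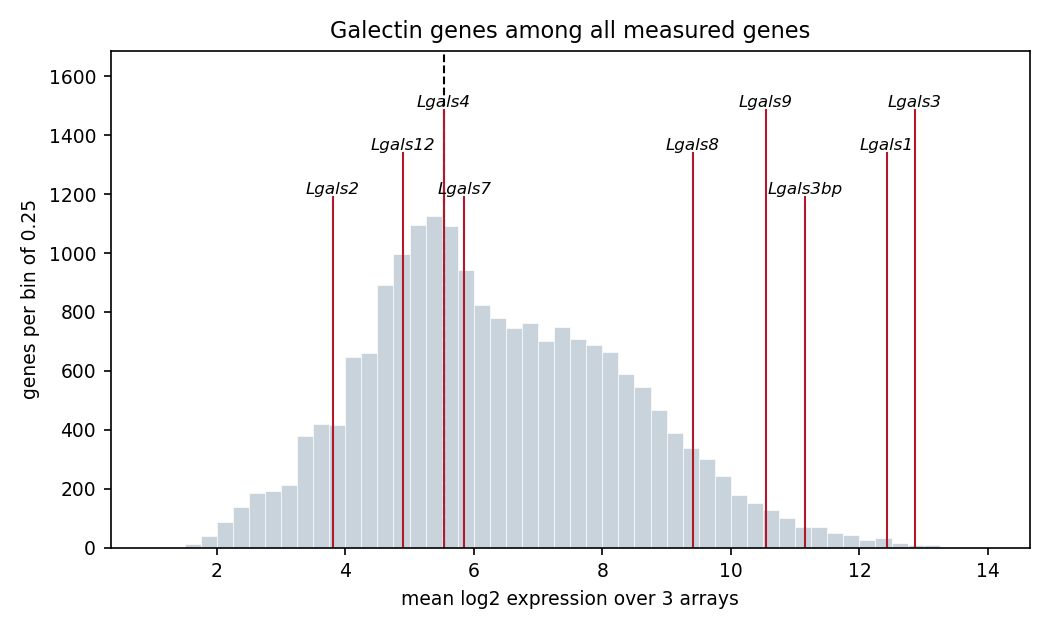
Histogram of the mean log2 expression of all 19938 genes (bars, genes per bin), with the mean of each of the 9 genes as a labelled line and the 95th percentile limit dashed. The line heights only separate the labels. Lgals1 and Lgals3 stand in the upper tail at 12.42 and 12.86, and Lgals2, Lgals12, Lgals4 and Lgals7 lie at or below 5.85.

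The label of the cells was checked against markers. Of 8 dendritic cell markers 7 were above background, among them Itgax (11.91, 11.92 and 11.91), which encodes CD11c, Cd74 (12.42) and H2-Ab1 (12.31, 12.36 and 12.42), and Flt3 (5.47, 5.47 and 5.24) was not. Zbtb46 (6.36 in each array) passed but missed the limit of 6.54 from the genes of other organs. Of 7 macrophage markers 5 were above background, among them Adgre1 (10.25, 10.18 and 10.04), Csf1r (11.03, 10.94 and 10.77) and Mertk (10.58, 10.58 and 10.65), while Cd163 (4.44) and Vsig4 (3.27) were not. Among 8 T and NK cell markers, 6 were above background too. Ncr1 (4.23 in each array) was below the limit, and Cd2 (5.62, 5.31 and 5.09) passed it in replicate 1 alone. The arrays measure the culture as a whole, in which fewer cells of a type and less RNA per cell cannot be told apart, and the galectin signals were not assigned to a cell type.

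Galectins act through the glycans they find, so the enzymes that build or cap those glycans and the known partner proteins were listed in 6 groups. Of the 58 measured genes of these groups 51 were above background (87.9%), beside 60.5% of all genes. The median level was 8.24, beside 6.12 for all genes. The lists were chosen with earlier results of these data known, so these values describe the lists and are no test of galectin ligands.

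In N-glycan branching, which sets how many arms can carry N-acetyllactosamine, 7 of 8 genes were above background. Mgat1, which starts the complex type of N-glycan, had 7.55 in each array. Mgat2 (8.78, 8.74 and 8.74), Man2a1 (9.80, 9.80 and 9.90) and Man2a2 (8.60, 8.60 and 8.50) act next. Mgat5, whose branch is the classical high-affinity ligand of galectin-3, had 8.60, 8.60 and 8.62. Mgat3, whose bisecting residue blocks further branching, had 5.56, 5.54 and 5.54 and missed the limit in replicate 3 alone.

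Of the genes that add galactose or extend poly-N-acetyllactosamine, 10 of 12 measured ones were above background. B4galt1, the main galactosyltransferase of N-glycans, had 9.32, 9.31 and 9.30, and B4galt5 had 10.08, 10.01 and 9.98. B4galt3 (6.78, 6.88 and 6.94) and B4galt4 (6.06, 6.06 and 6.09) passed at lower signals. B3gnt2, the main enzyme of poly-N-acetyllactosamine chains, had 8.89 in each array, and B3gnt4 (5.46, 5.40 and 5.46) and B3gnt5 (5.10) were below the limit. B4galt2 had no probe set of its own.

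For O-glycans, C1galt1 (8.18, 8.18 and 8.26), which makes the core 1 structure, its chaperone C1galt1c1 (6.26) and Gcnt1 (8.50, 8.60 and 8.67), which makes the core 2 branch that carries galectin-1 ligands on T cells, were above background. Gcnt3 (4.44) and Gcnt4 (4.51, 4.51 and 4.59) were not, which gives 3 of 5 genes (60%), beside 60.5% of all genes.

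Sialic acid can mask galactose. An α2,6 link, made by St6gal1 and St6gal2, blocks galectin-1 binding, whereas α2,3 links made by the St3gal enzymes are tolerated by several galectins. St6gal1 was above background at 8.30, 8.31 and 8.30, and St6gal2 was not at 4.23. All 6 St3gal genes passed, from St3gal6 at 6.05, 5.87 and 5.87 to St3gal1 at 8.80, 8.80 and 8.75. St3gal2 had 7.52 in each array. With Cmas and Slc35a1, which activate and transport sialic acid, 9 of 10 genes of this group were above background. Enzymes of both kinds of link were therefore detected, and transcript signals do not show the glycans themselves.

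All 17 partner genes were above background, and 14 of them passed each of the stricter limits. Spn, Cd7 and Lag3 (6.32, 6.32 and 6.09) missed the stricter receptor limit. They include Ptprc (10.30, 10.24 and 10.18), Spn (6.39, 6.39 and 6.27) and Cd44 (9.55), the genes of CD45, CD43 and CD44, and the integrin gene Itgb1 (10.02, 10.01 and 10.05). The lysosomal proteins that bind galectin-3 gave Lamp1 at 11.88 in each array and Lamp2 at 12.52, 12.52 and 12.56. Havcr2, the gene of TIM-3, had 7.99, 7.94 and 8.17. Fn1 (10.94, 10.79 and 10.15), the gene of fibronectin, and Cd7 (6.87, 6.60 and 5.89), a galectin-1 receptor of T cells, spanned more than 0.5 log2 units, as 2.61% of all genes above background did. Both were lowest in replicate 3.

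Of the genes that handle damaged endosomes and lysosomes, 5 of 6 were above background. The galectin-3 partners Trim16 and Pdcd6ip, the latter encoding the repair factor ALIX, had 5.78 in each array and 10.39, 10.39 and 10.37. Tfeb, the regulator of lysosomal genes, had 7.92, 7.94 and 7.88. Calcoco2, which encodes a relative of the human receptor that galectin-8 recruits, was below the limit at 4.75. Tfrc, the transferrin receptor, had 9.01, 8.41 and 7.43, a range of 1.58 log2 units or 2.98-fold.

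**Figure D3:**
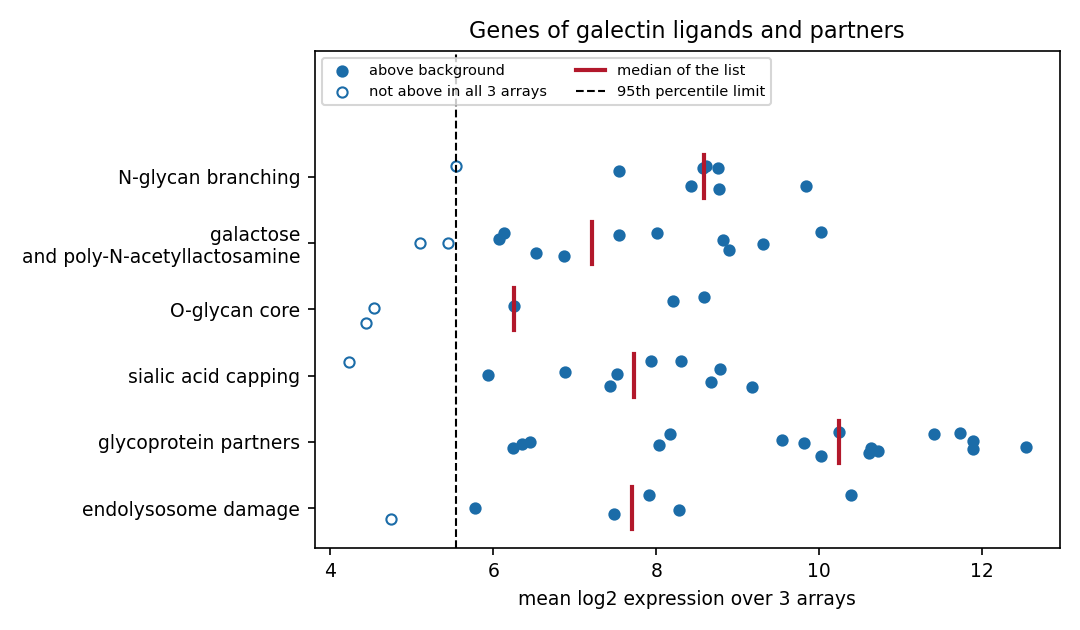
Mean log2 expression over 3 arrays (horizontal axis) of each measured gene in the 6 groups, filled where the gene was above background in all 3 arrays and open where not; red bars are group medians and the dashed line is the 95th percentile limit. The vertical scatter within a group has no meaning. Of 58 genes 51 are filled, among them the 17 partner genes.

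The signals of the 9 genes differed little between arrays. Of the 6 genes above background, Lgals8 and Lgals9 were identical in the arrays, as were 46.5% of all genes above background. The other 4 were all lowest in replicate 3, beside 37.8% of the genes above background that were not identical. In size these deviations were small. The range was 0.03 log2 units for Lgals1 (1.02-fold), 0.06 for Lgals3 (1.04-fold), 0.16 for Lgals3bp (1.11-fold) and 0.18 for Lgals7 (1.13-fold). The median range over the 6 genes was 0.045, beside 0.0096 over all genes above background. Without replicate 3 the median range of the 6 genes was 0.0072. A smaller value was certain, since the 4 genes that differed were lowest in that array. The same value over all genes was not computed. Of all genes above background 24.2% had a range of at least 0.1. None of the 9 genes spanned more than 0.5.

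Some marker lists of other cells, though not all, were lowest in the same array by larger amounts. Averaged over all measured genes of a list, the level in replicates 1, 2 and 3 was 8.26, 7.93 and 7.35 for T and NK cells (6 of 8 genes above background). Cd3e had 9.09, 8.79 and 8.15, Cd3g 8.65, 8.22 and 7.44 and Cd3d 6.90, 6.47 and 6.10. The cell cycle list had 8.42, 8.15 and 7.66 (9 of 9), with Mki67 at 8.50, 8.18 and 7.38, Top2a at 8.06, 7.61 and 6.77 and Cdk1 at 9.14, 8.96 and 8.65. These named genes of lymphocytes and of dividing cells were each lowest in replicate 3. So were all 6 T and NK cell genes above background and 8 of the 9 cell cycle genes. Pcna (11.13, 11.13 and 11.27) was highest there, and Ncr1 had 4.23 in each array.

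Granulocyte and platelet lists were lowest there as well. The mast cell and basophil list had 6.21, 6.31 and 5.45 (4 of 8), with Cpa3 at 7.38, 7.54 and 5.38, Mcpt8 at 5.88, 5.97 and 4.68 and Prss34 at 7.75, 8.24 and 6.38. Within it Kit (5.22) and Tpsb2 (5.78) did not differ between the arrays. The neutrophil list had 6.12, 5.98 and 5.36 (4 of 9), and Ly6g (6.73, 6.80 and 4.86), Lcn2 (7.98, 6.69 and 5.12) and Retnlg (7.35, 7.11 and 5.55) had the widest ranges within it, whereas S100a8 had 5.88, 5.78 and 5.56 and S100a9 had 5.86 in each array. The erythroid and platelet list had 7.67, 7.48 and 7.05 (4 of 5), with Klf1 at 4.99 in each array, Pf4 at 10.65, 10.39 and 9.59 and Ppbp at 8.04, 7.56 and 6.64. Replicate 3 deviated from the 3-array mean by -0.06 in the macrophage list and by -0.06 in the dendritic cell list. In the dendritic cell list Ccr7 (10.15, 10.50 and 9.74) and Flt3 were lowest there, while H2-Ab1 was highest.

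The stromal list stood out in replicate 1, with a mean level of 6.68 there, 5.38 in replicate 2 and 5.47 in replicate 3 (3 of 9 genes above background in all arrays). Dcn had 8.12, 5.36 and 5.41, Sparc 7.64, 5.34 and 5.78 and Bgn 8.19, 5.33 and 5.31. Of the 9 genes 4 spanned over 0.5 log2 units. The 3 genes above background were Col1a1 (6.94, 6.69 and 6.76), Col1a2 (6.53, 6.36 and 6.36) and Col3a1 (6.10 in each array). Their mean deviation in replicate 1 was 0.09 log2 units, beside 0.84 over the whole list. The B cell list had 3 of 5 genes above background and the endothelial list 2 of 6. In replicate 3 they deviated by -0.07 and -0.02, the adipocyte list by -0.03 and the gut epithelium list by -0.003. The stratified epithelium list deviated by 0.01 there. Lgals3bp (-0.10) and Lgals7 (-0.12) deviated more than these lists. The part of any of these cells in the galectin values was not tested.

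**Figure D4:**
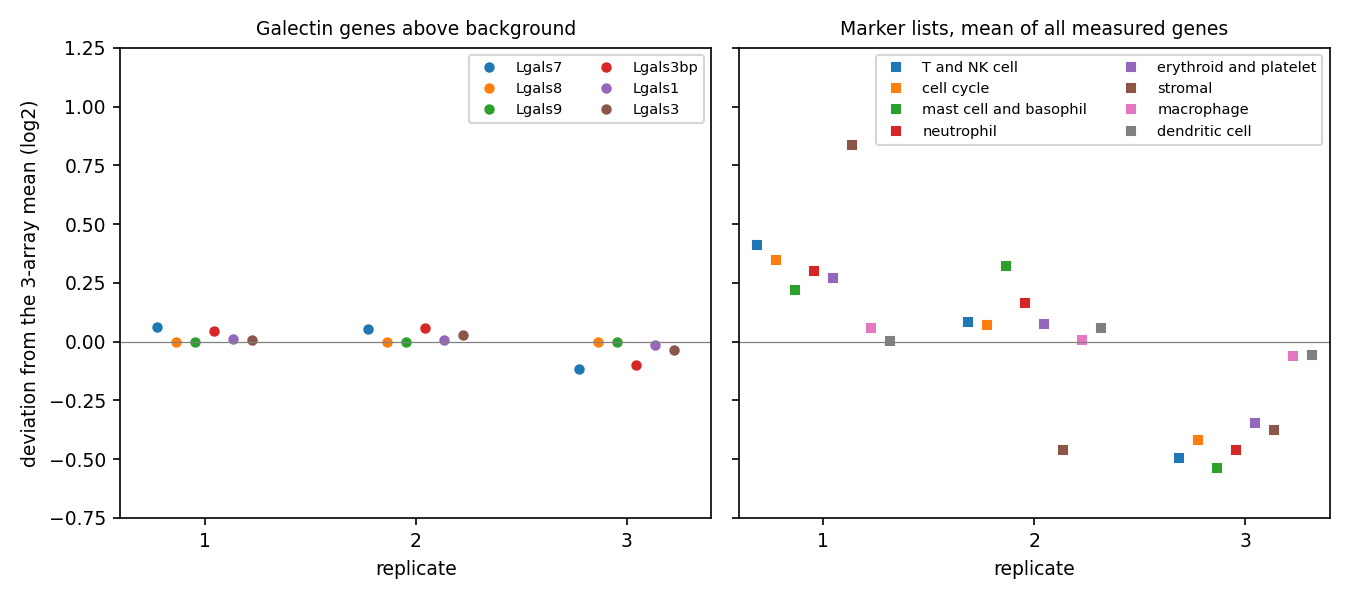
Deviation of each replicate from the 3-array mean in log2 units (vertical axis), on the left for the 6 genes above background and on the right for the mean over all measured genes of 8 marker lists; points are shifted sideways so that they can be told apart. The galectin genes and Lgals3bp stay between -0.12 and 0.06, the T and NK cell list runs from 0.41 to -0.50, and the stromal list is at 0.84 in replicate 1.

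Only Lgals3bp and Lgals7 were above background with a range of at least 0.1 log2 units, and the genes nearest to them in deviation over the 3 arrays were found by Euclidean distance. For Lgals3bp they were Comtd1 (distance 0.0047), Prr12 (0.0049) and Ldb1 (0.0083), and for Lgals7 they were Cd79b (0.0018), Agap2 (0.0022) and Ccdc88c (0.0022). With 3 arrays such likeness is common, since 1391 of 12067 genes lay within 0.1 log2 units of Lgals3bp and 1140 within that distance of Lgals7.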

How the data were processed

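Total RNA of 3 BMDC samples, 150 ng each, was amplified and hybridised to 1 array per sample, per the labels' protocols. The authors deposited log2 expression from RMA, a method named in the submitters' processing notes. Software and genome build: not given in the sources used here. Array medians were 5.91, 5.91 and 5.91. Precision is limited by the number of arrays.

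Of 35556 probe sets, 21789 name 1 gene, 1621 name several and were not used, and 12146 are not listed. A gene took its probe set with the highest mean, which gave 19938 genes. Means, SDs, ranges and calls were computed in Python 3.11.15 with pandas 2.3.3. The code for calls and ranges was run on simulated data. The simulated background was drawn from the receptors that set the limit, so it says nothing about false calls in the real data. No test between conditions was possible with 1 group. Alternatives changed the limit, the call, the probe set rule, the centring and the arrays used.

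All members were named, with the first 4 measured genes of each ligand group, up to 4 that went against most of it and up to 3 that spanned over 0.5 log2 units. For marker lists the first 3 measured genes were to be named, which was not done for the B cell, endothelial and silent lists, where counts are given. Mgat5, B3gnt2, Lamp1, Lamp2, Havcr2, St3gal6, Cmas, Slc35a1, Fabp4, Pparg, Lep, Muc2, Cdh17, Krt10, Cd163, Vsig4, Flt3, Zbtb46, Cd2, Ncr1, Pcna, Lcn2, Retnlg, Lag3, Gga1, Sh3bp1 and Pdxp were added after their values were seen. Col1a1, Col1a2, Col3a1, Kit, Tpsb2 and Ccr7 were added in the same way. Members and lists were chosen with earlier results of these data known.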

Additional observations from a re-analysis of the deposited data

How the results depend on the processing

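The count of 6 of the 9 genes above background (5 galectin genes and Lgals3bp) was 5 with the stricter receptor limit (99th percentile) and 5 with a limit set by the genes of other organs, where 46.2% and 42.9% of all genes passed. Lgals7 was the gene lost, with a distance to the limit of -0.60 and -0.81 log2 units in its lowest array. The 51 ligand and partner genes above background became 43 and 42 under these limits and 51 or 52 under the others. Calling on the mean gave 6. Each of the 9 genes has 1 probe set, so the probe set rule could not change a call. Leaving out an array can only add calls, and it added none to the 9 genes. The median range over the 6 genes was 0.0072 to 0.042 when an array was left out, the lowest value being without replicate 3. A range over fewer arrays cannot be wider, so these values had to be no larger. Centring on the genes above background gave 0.034, and 4 genes were still lowest in replicate 3. No paired analysis was possible because there is 1 group. Signals near the limit, those of Lgals4 and Lgals7, cannot be told from unspecific binding at this number of arrays.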
